A study of Rattus norvegicus with 2 samples.

Results

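The transcripts described here are 10 genes of the response to low oxygen in rat liver: the oxygen-regulated transcription factor subunit Hif1a, the oxygen-sensing enzymes Egln1 and Egln3, and 7 genes known to be switched on by that factor, Slc16a3, Adm, Vegfa, P4ha1, P4ha2, Bnip3 and Ndrg1. They were chosen by name, with earlier results of these data known, and glycolytic enzymes and glucose carriers were left out. Probes were assigned by the RefSeq accession each carries, which gave 12 probes for 9 of the 10 genes, out of 13667 genes that could be named on the array. Egln1 had no probe with such an accession and has no value here. Livers of Sprague Dawley rats were compared 36 h after treatment with sodium chloride (control) or with senecionine, a hepatotoxic pyrrolizidine alkaloid of plants, given at 35 mg/kg (i.g.). In each group 3 tissue samples were mixed into 1 pool, and each pool was hybridised to 1 one-colour oligonucleotide array; the 2 experiments that the design text names are read here as these arrays. The 2 arrays therefore give 1 value per group, no spread between animals and no test, and every difference below is between those arrays. In RNA from whole liver, a lower signal can come from fewer cells of a type or from less RNA per cell, and these cannot be told apart.

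Cells sense oxygen through prolyl hydroxylases of the EGLN (PHD) family, which mark the HIF alpha subunits for destruction through the VHL ubiquitin ligase when oxygen is plentiful. When oxygen is short, HIF alpha escapes, pairs with ARNT and binds hypoxia response elements in its target genes. HIF alpha is controlled largely at the level of the protein, so its transcript need not follow its activity. In liver, oxygen falls along the sinusoid from the portal to the central side, and the targets serve glucose use, vessel growth and tone, collagen maturation and removal of mitochondria.

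The software marked 44.4% of the control array's non-control spots as well above background, and 64.1% of the senecionine array's. A gene is called detected here where its signal was so. The lowest signal so marked was 20.6 units in the control and 10.8 after senecionine. A signal between these could thus count as detected after senecionine alone without being higher there. Signals are the scanner software's processed signal in intensity units, and ratios are log2 of senecionine over control after each array was divided by its 75th percentile, which was 101 units in the control and 134 after senecionine. The error beside a ratio is the scanner software's spot error, a technical error within the arrays. A gene was called higher or lower at 2-fold, a log2 ratio of 1. The 7 hepatocyte markers with a probe were detected in both pools, with a summed level of 3535 in the control and 2215 after senecionine, in multiples of the 75th percentile. Of 16 markers of neurons and glia, 13 were also detected in each pool, with a summed level of 85.4 in the control and 6.28 after senecionine. Among them Mbp, the myelin protein, gave 1054 units in the control and 16.2 after senecionine. What part this has in the ratios below was not tested.

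Promoter sequences are shown because the members' transcripts stood mostly on one side, and the factor's recognition core can be looked for in them. RefSeq promoter windows of assembly GRCr8 were matched by symbol for 9 of the 10 genes (not Ndrg1), and the 250 bases before each start were searched on both strands for ACGTG and GCGTG, the cores of the hypoxia response element. The core stood in the windows of 5 of 9 genes, Hif1a, Egln1, P4ha1, P4ha2 and Bnip3. It stood in 36.7% of all 33469 windows. All 5 of these windows had a G+C content above 65%, and among all 5072 windows of at least 65% G+C the share with the core was 65.02%. With ACGTG alone, 3 of 9 genes had a match, against 16.6% of all windows. Those 3 windows also had a G+C content above 65%, and the share with ACGTG among windows that rich was not computed. Shown are the windows of 4 measured genes with the core, chr20:27844796-27845045 (plus strand) for P4ha1, chr10:38743644-38743893 (plus strand) for P4ha2, chr1:203154963-203155212 (minus strand) for Bnip3 and chr6:98359648-98359897 (plus strand) for Hif1a. Beside them stands chr10:106712078-106712327 (plus strand) of Slc16a3, the highest of the 8 measured ratios, which had no match. Each sequence runs toward the start of its gene, and capitals mark the core on either strand.
P4ha1: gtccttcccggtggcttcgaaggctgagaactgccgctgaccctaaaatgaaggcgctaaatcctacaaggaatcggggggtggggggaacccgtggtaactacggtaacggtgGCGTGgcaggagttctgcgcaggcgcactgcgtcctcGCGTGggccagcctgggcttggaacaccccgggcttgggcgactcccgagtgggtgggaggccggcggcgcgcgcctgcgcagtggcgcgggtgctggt
P4ha2: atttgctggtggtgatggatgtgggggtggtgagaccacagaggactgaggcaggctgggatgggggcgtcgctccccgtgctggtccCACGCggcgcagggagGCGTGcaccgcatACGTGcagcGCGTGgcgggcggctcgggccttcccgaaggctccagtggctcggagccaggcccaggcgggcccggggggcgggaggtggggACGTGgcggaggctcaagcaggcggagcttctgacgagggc
Bnip3: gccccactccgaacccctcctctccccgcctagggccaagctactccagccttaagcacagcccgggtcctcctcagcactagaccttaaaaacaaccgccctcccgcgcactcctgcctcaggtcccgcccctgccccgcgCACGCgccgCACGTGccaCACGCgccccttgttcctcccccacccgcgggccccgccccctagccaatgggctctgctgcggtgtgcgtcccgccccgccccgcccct
Hif1a: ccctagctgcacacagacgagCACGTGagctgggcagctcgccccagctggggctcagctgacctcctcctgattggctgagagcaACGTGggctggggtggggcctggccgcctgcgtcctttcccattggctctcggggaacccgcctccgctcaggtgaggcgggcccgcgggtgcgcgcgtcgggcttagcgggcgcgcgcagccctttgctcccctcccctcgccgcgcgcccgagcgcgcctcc
Slc16a3: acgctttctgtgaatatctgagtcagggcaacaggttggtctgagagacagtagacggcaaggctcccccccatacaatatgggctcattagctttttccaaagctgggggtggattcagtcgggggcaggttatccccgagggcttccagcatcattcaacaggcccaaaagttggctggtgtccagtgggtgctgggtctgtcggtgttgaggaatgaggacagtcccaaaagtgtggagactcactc
P4ha2 had 5 matches, Bnip3 4, Hif1a 3 and P4ha1 2. In Bnip3 and in Hif1a, 2 of the matches are the opposite strands of the palindrome CACGTG, which is also the E-box read by MYC and clock factors. The windows of Egln3, Adm and Vegfa also held no core. No match says only that these letters are not in this window, and a match is a description of sequence, not a binding site.

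Of the 8 members detected in both pools, 7 stood at least 2-fold higher after senecionine, 0 at least 2-fold lower and 1, Hif1a, within 2-fold. The same shares over all 7803 genes detected in both pools were 11.2% higher, 17.7% lower and 71.1% within 2-fold, 28.9% having passed 2-fold either way. Without scaling between the arrays, 1620 genes in all would be higher and 787 lower, in place of 876 and 1379, the median of all genes would be 0.27, and the members' count would be the same. At 4-fold, 4 members were higher, against 2.73% of all genes. Because the members were chosen with earlier results of these data known, these counts describe them and are not a test. The members' log2 ratios ran from 0.37 for Hif1a to 5.39 for Slc16a3, with a median of 2.35, beside a median of -0.14 over all measured genes. The ninth gene with a probe, Ndrg1, was detected after senecionine alone, as were 19.1% of all named genes, while 1.24% were detected in the control alone. Both shares depend on the unequal detection floors given above. In the order of ratios, Slc16a3 ranked 7 of 7803, Egln3 29, Adm 31, P4ha1 74, Vegfa 282, Bnip3 292, P4ha2 848 and Hif1a 2214. Egln3 and Adm differed by 0.16 on the log2 scale, and Vegfa and Bnip3 by 0.02, both within 2 combined spot errors. The other 5 pairs of neighbours in this order were further apart than that. The order rests on 1 probe per gene, and spot error does not cover differences between probes. The other probe of Hif1a gave 1.03, beside 1.02 for P4ha2, and the other probe of Vegfa gave 0.73, so the places of these genes are not settled.

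**Figure D1:**
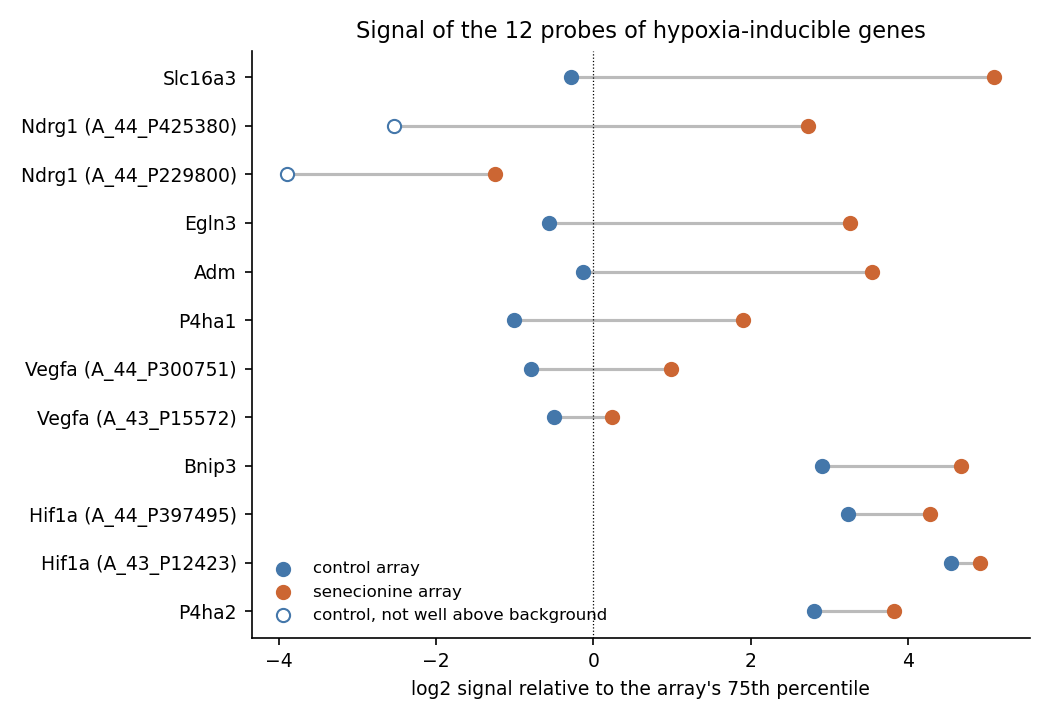
Scaled log2 signal (0 is each array's 75th percentile) of the 12 member probes, 1 line per probe, on the control array (blue) and the senecionine array (orange), open circles being not well above background. All 12 lines run to the right on the senecionine array, from a step of 0.37 for 1 probe of Hif1a to 5.39 for Slc16a3.

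**Figure D2:**
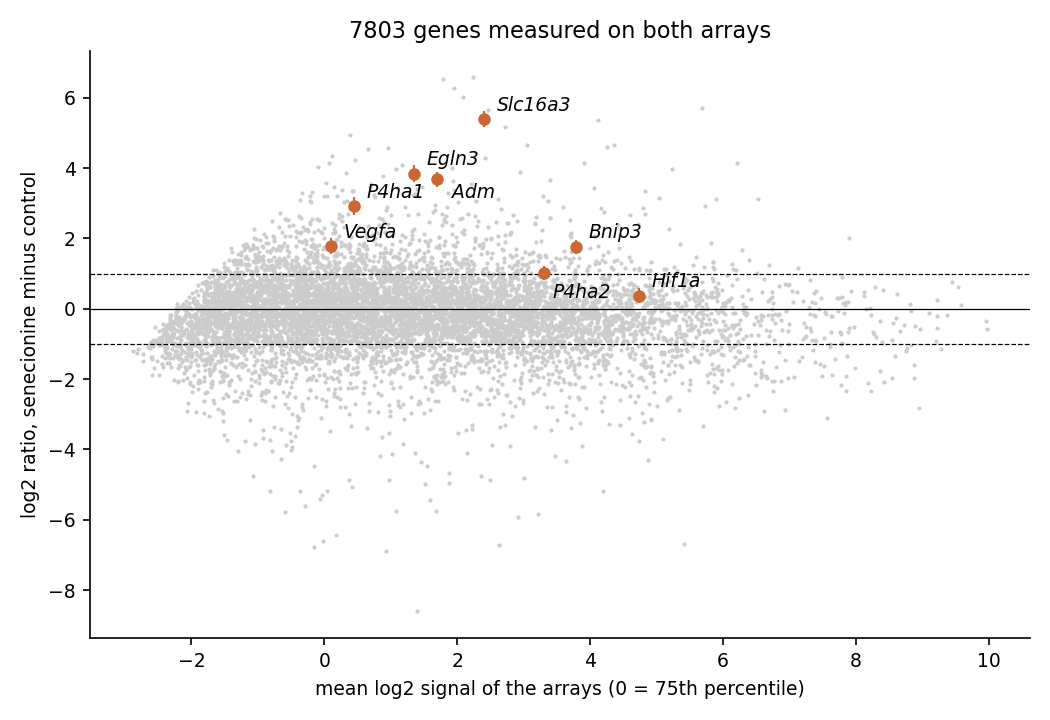
Log2 ratio against the mean scaled log2 signal for 7803 genes measured on both arrays (grey), with the 8 measured members in orange, bars showing the spot error and dashed lines at 2-fold. The members lie at low, middle and high signal, and only Hif1a, at 0.37, lies clearly below the upper dashed line, while P4ha2, at 1.02, lies on it.

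The sensing and regulating members came out unequal. Hif1a, the oxygen-regulated alpha subunit, was measured by 2 probes. The brighter, with 1 spot, gave 2361 units in the control and 4052 after senecionine, a log2 ratio of 0.37 ± 0.20. The other probe was spotted repeatedly. Its 9 kept spots in the control gave 748 at the lowest, 993 at the median and 1133 at the highest, and its 10 after senecionine 2199, 2589 and 2875. No spot of the senecionine array overlapped those of the control array, also after scaling. Its log2 ratio of 1.03 ± 0.20 lay just past 2-fold. The probes of Hif1a thus fell on different sides of 2-fold. The authors' deposited table, which holds only probes at least 2-fold apart, lists the second probe, with a log2 difference of 1.28, and not the first.

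Egln3, an oxygen-dependent prolyl hydroxylase that is itself a HIF target and so closes a feedback loop, gave 67.9 units in the control and 1288 after senecionine. It was 14.3-fold higher (log2 ratio 3.84 ± 0.23, or 3.22 with normexp background correction). Its relative Egln2 stood on the other side, with 978 units in the control and 570 after senecionine, a log2 ratio of -1.19 ± 0.20. Vhl, which recognises hydroxylated HIF alpha, had a log2 ratio of 0.71 ± 0.20, and Epas1, the HIF alpha subunit prominent in endothelium, one of -0.52 ± 0.26, both within 2-fold. Usp20, a deubiquitinase that acts on HIF alpha, lay within it too at -0.61. Arnt, the constitutive partner, and Hif1an, the asparaginyl hydroxylase that blocks HIF activity, were detected after senecionine alone. Arnt gave 8.86 units in the control and 22.7 after senecionine, near the lowest signal that counted as detected in the control (20.6), and no fold is given for it. Hif1an was at least 1.53-fold higher. In the list of 20 HIF regulation partners, 13 were measured on both arrays, of which 1 was at least 2-fold higher, the ubiquitin ligase Siah1 that acts on prolyl hydroxylases (log2 ratio 1.17), and 1 lower, Egln2. The list's median was 0.25. With normexp background correction neither reached 2-fold, and without scaling Egln2 did not.

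Slc16a3, the carrier that exports lactate from cells running on glycolysis, had the highest ratio of the 8 members measured on both arrays. Ndrg1, with only a lower bound, cannot be placed in that order. Slc16a3 gave 82.5 units in the control and 4587 after senecionine, 41.9-fold higher after scaling (log2 ratio 5.39 ± 0.22, or 4.73 with normexp background correction). The 3 genes just above it in the order of all measured genes were Atf3, Lcn2 and Cxcl1 (log2 ratios 6.02, 5.72 and 5.66), and the 3 just below Cdkn1a, Ccl2 and Car4 (5.37, 5.16 and 4.93). The other lactate carrier that was measured, the high-affinity Slc16a7, stood on the other side, at 607 and 359 units (log2 ratio -1.16 ± 0.20). Slc16a1 had no named probe. The chaperone that lactate carriers need at the membrane, Bsg, was at 0.02 ± 0.20, and Emb, the related chaperone, was 9.16-fold higher (3.19 ± 0.27). Of 5 listed carriers and chaperones 3 were measured, so 1 was higher, 1 lower and 1 within 2-fold. The lower call, that of Slc16a7, was lost with normexp background correction and without scaling.

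Slc16a3 is also known from activated leukocytes, so the leukocyte markers are given beside it. Of 9 neutrophil markers with a probe, 3 were detected in the control and 8 after senecionine, and their summed level was 4.06 and 78.6 multiples of the 75th percentile. Most of the sum after senecionine came from S100a8 and S100a9, at 4559 and 4412 units there. S100a9 was 92.2-fold and S100a8 77.4-fold higher, whereas Csf3r, detected after senecionine alone, was at least 3.21-fold higher. Elane was near background, at 17.9 units in the control and 14.5 after senecionine, and Ngp was detected in neither. Elane and Cxcr2 (4.09 and 16.6 units) counted as detected after senecionine though below the lowest detected control signal of 20.6 units. Of 8 measured macrophage markers, 3 passed 2-fold upward and 2 downward, with a median log2 ratio of -0.31. Clec4f, a Kupffer cell lectin, was at -3.17 and Lgals3, galectin-3, at 2.91. The summed level with Cd163, which was detected in neither, was 174 in the control and 272 after senecionine, and Lgals3 alone gave 1955 and 19507 units. The part of these cells in the Slc16a3 ratio was not tested.

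The secreted members act on vessels. Adm encodes adrenomedullin, a vasodilator peptide, and its probe was spotted 10 times per array. The 10 control spots gave 79.3 units at the lowest, 91.7 at the median and 109 at the highest, and the 9 kept senecionine spots 1208, 1559 and 1729. Every senecionine spot was thus far above every control spot, and Adm was 12.8-fold higher (log2 ratio 3.68 ± 0.22). The spot SD on the log2 scale was 0.14 in the control and 0.17 after senecionine. For 123 probes spotted at least 9 times, the median spot SD was 0.15 and 0.11. Repeated spots show how well 1 array measures 1 pool, and do not replace animals. Adm2, the related peptide, was detected after senecionine alone, with a bound of at least 3.72-fold higher.

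Vegfa, the main growth factor of vessel endothelium, was measured by 2 probes that differed in their ratios. The probe with the higher mean signal had 1 spot per array, at 58.2 units in the control and 265 after senecionine (log2 ratio 1.78 ± 0.24, 3.44-fold higher). The other was spotted 10 times per array, with 46.8, 72.8 and 101 units at the lowest, median and highest control spot, and 119, 155 and 194 after senecionine. These intensities did not overlap, but after scaling the highest control spot (log2 level 0.0078) lay above the lowest senecionine spot (-0.17). This probe gave a log2 ratio of 0.73 ± 0.23, within 2-fold, so the call of Vegfa rests on which probe represents it. The probe chosen by signal in the control alone would be the second, and the count of members at least 2-fold higher would then be 6 of 8. With normexp background correction the log2 ratio of Vegfa was 1.10. The authors' deposited table, which holds only probes at least 2-fold apart, lists only the first, with a log2 difference of 1.84. Of 1377 genes with at least 2 measured probes, 23.6% had probes on different sides of 2-fold. The distance between the probes was 1.05 on the log2 scale for Vegfa and 0.66 for Hif1a, and its median over these genes was 0.44. It was smaller than that of Vegfa in 84.0% of these genes, and smaller than that of Hif1a in 68.0%.

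**Figure D3:**
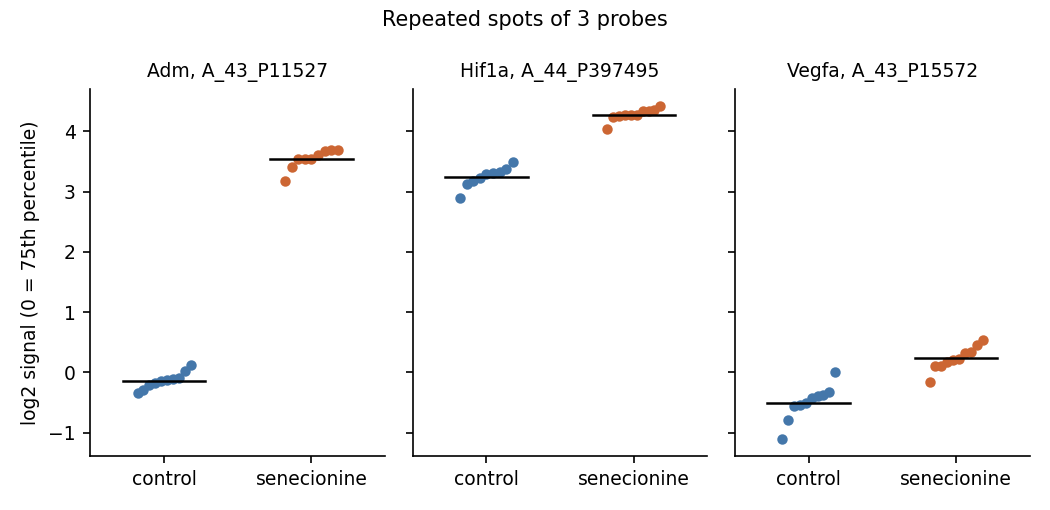
Scaled log2 signal of each kept spot for the 3 member probes spotted repeatedly, by array, with black lines at the means. For Adm and Hif1a every senecionine spot lies above every control spot, and for Vegfa the arrays overlap, with control spots from -1.11 to 0.0078 and senecionine spots from -0.17 to 0.54.

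Of the receptors and co-receptors of these peptides, Kdr was detected in both pools. Kdr, the main signalling receptor for VEGF on endothelium, was 7.42-fold lower, at 4974 units in the control and 888 after senecionine (log2 ratio -2.89 ± 0.20). Flt1, the high-affinity decoy, lay near background in both pools, at 23.1 and 25.5 units, and counted as detected after senecionine alone. So did the receptor Flt4, the co-receptors Nrp1 and Nrp2 and the accessory protein Ramp3, at 13.7 to 19.3 units, too dim for a bound. Calcrl, the adrenomedullin receptor, was detected in neither pool, at 9.17 and 3.72 units. Ramp2, its accessory protein, was at a log2 ratio of 0.05 ± 0.21. Angpt2, the TIE2 ligand that loosens vessels, was 5.87-fold higher (2.55 ± 0.31), and Vegfc, the lymphatic growth factor, lay within 2-fold at 0.69, as did Ramp1 at -0.55. In all, 6 of 16 listed partners were measured on both arrays, 1 higher and 1 lower, and 8 more were detected after senecionine alone. Of 5 measured sinusoidal endothelial markers, 3 were at least 2-fold lower, including Kdr itself and Dnase1l3 (20.7-fold lower). The summed level of the 7 with a probe was 109 in the control and 38.8 after senecionine, and Pecam1 was detected in neither pool. The part of endothelial cells in the Kdr ratio, which is itself in that sum, was not tested.

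P4ha1 and P4ha2 encode alternative catalytic subunits of the collagen prolyl 4-hydroxylase, which lets collagen form a stable triple helix. P4ha1 gave 50.2 units in the control and 501 after senecionine, 7.52-fold higher (log2 ratio 2.91 ± 0.25). With normexp background correction its log2 ratio was 1.80. P4ha2 gave 703 and 1891 units, 2.03-fold higher (1.02 ± 0.20). P4ha1 thus lay well past 2-fold, and P4ha2 at its edge, closer to it than its spot error. With each array scaled to its median, which moved the median of all genes from -0.14 to -0.26, P4ha2 had a log2 ratio of 0.89. The shared second subunit P4hb, which is also the abundant protein disulphide isomerase, stayed at -0.02 ± 0.20, with 10821 and 14146 units before scaling.

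Collagens and their modifying enzymes were listed as partners of these subunits. Of 15 listed partners 11 were measured, with a median log2 ratio of -0.02, 1 at least 2-fold higher and 0 lower, and with normexp background correction or without scaling 2 were higher. A further 3 were detected after senecionine alone, the hydroxylase P4ha3 and the P3h2 and P3h4 genes of the prolyl 3-hydroxylase family. They gave 12.3, 28.4 and 26.7 units there. P4ha3 gave 11.9 units in the control, so its call rests on the unequal detection floors (20.6 and 10.8 units). After scaling it was not higher after senecionine. P3h2 and P3h4 were dimmer in the control than after senecionine. The gene counted as at least 2-fold higher was Col4a1, the basement membrane chain, at 1.10 on its brighter probe and -0.71 on the other. The fibrillar chains Col3a1, Col1a2 and Col1a1 had log2 ratios of -0.88, -0.63 and -0.17, and the collagen chaperone Serpinh1 one of 0.93. The other probe of Col1a2 gave -0.10, and that of Col1a1 gave 0.65, of opposite sign. Stellate cell and fibroblast markers, of which 8 were measured, were at least 2-fold higher in 2 cases (Dcn and Des) and lower in 1 (Lrat), and the summed level of 9 with a probe was 244 in the control and 160 after senecionine. These markers include the fibrillar collagens just named. Their part in the P4ha1 ratio was not tested.

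Bnip3, a mitochondrial outer membrane protein that recruits the autophagy machinery, gave 758 units in the control and 3411 after senecionine. It was 3.39-fold higher (log2 ratio 1.76 ± 0.20), on a single probe. Bnip3l, its closest relative with the same role, stayed at 0.07 ± 0.20, with 2430 and 3386 units. In the list of BNIP and NDRG relatives, 9 were measured, 3 higher and 3 lower. The 3 higher were Bcl2l1, the apoptosis inhibitor that BNIP proteins can bind (1.56, but -0.12 on its other probe), Bnip2 (1.22) and the autophagy initiator Becn1 (1.07). With normexp background correction 1 of the 9 was higher.

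Ndrg1, a stress-responsive cytoplasmic protein strongly induced by low oxygen in many cell types, was detected after senecionine alone, on both of its probes. The brighter gave 17.4 units in the control and 886 after senecionine, and the other 6.76 and 56.3 units. Set against the lowest detected control signal, they were at least 32.5-fold and at least 2.06-fold higher. The second probe was dim in both pools. In the authors' deposited table their log2 differences are 5.38 and 2.48, and its differences for the other 8 members with a probe run from 1.23 for P4ha2 to 5.66 for Slc16a3. Ndrg2 and Ndrg4 stood on the other side. Ndrg2 had 27282 and 4797 units (7.54-fold lower) and Ndrg4 210 and 26.3 units (10.6-fold lower). Both are known from brain, Ndrg2 also from liver, and of 11 measured markers of neurons and glia 9 were at least 2-fold lower and 0 higher, with a median of -2.80. Of the 16, Gfap, Syt1 and Stmn2 were not detected in the control. The part of neural RNA in the Ndrg2 and Ndrg4 ratios was not tested.

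**Figure D4:**
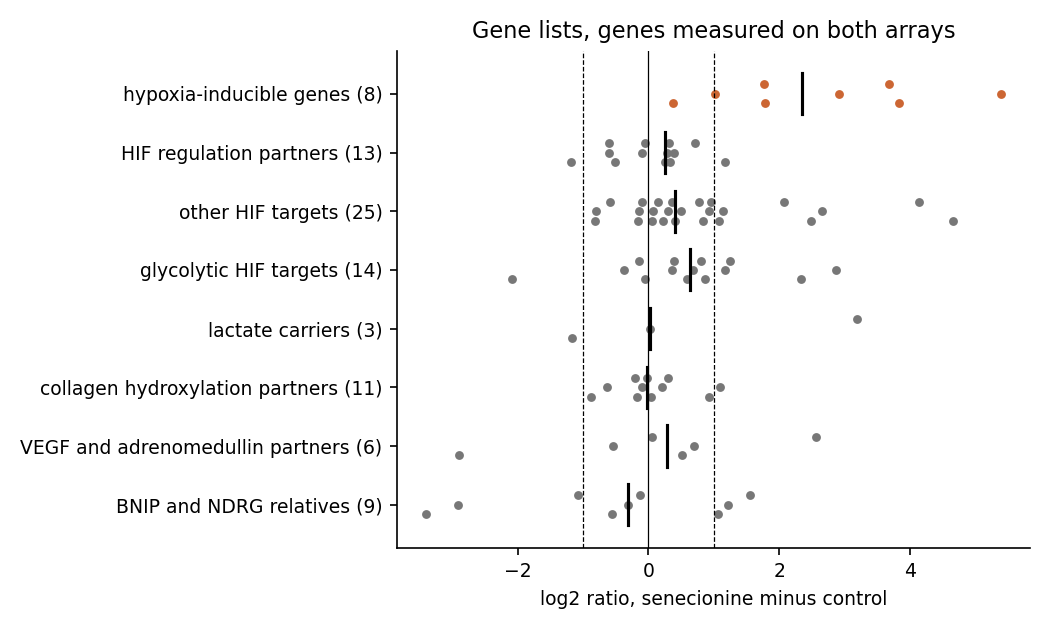
Log2 ratio of every gene measured on both arrays in 8 gene lists, 1 point per gene, with the number measured in parentheses, black lines at the medians and dashed lines at 2-fold. The hypoxia-inducible genes have a median of 2.35, and the 7 other lists have medians from -0.31 to 0.64.

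Other known HIF targets were set beside the members. Of 42 listed, 35 had a named probe and 25 were measured on both arrays. At least 2-fold higher were 7 of 25, and 0 were at least 2-fold lower, with a median of 0.40. Highest were the haem-degrading enzyme Hmox1, at 410 and 13791 units (25.3-fold higher), Igfbp1, the hepatocyte-made IGF binding protein, at 1781 and 41637 units (17.6-fold), the HIF-induced ankyrin protein Ankrd37, at 96.7 and 805 units (6.28-fold), and the endoplasmic reticulum oxidase Ero1a, at 148 and 1097 units (5.59-fold). Hmox1 and Igfbp1 also answer to regulators other than HIF. A further 8 were detected after senecionine alone. Among these the collagen lysyl hydroxylase Plod2 was at least 4.61-fold and the oxygenase Jmjd6 at least 3.24-fold higher. Epo, the red cell hormone, was detected in neither pool, at 4.82 and 6.39 units.

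Several classical targets lay within 2-fold. The mTOR inhibitor Ddit4 had a log2 ratio of 0.22 ± 0.25, the MYC antagonist Mxi1 one of 0.40 ± 0.23 and Ak4, a mitochondrial adenylate kinase, one of 0.29 ± 0.25. They were dim in both pools, which limits their ratios. Ddit4 gave 41.2 units in the control and 63.7 after senecionine, Mxi1 61.5 and 108, and Ak4 58.7 and 95.4. The histone demethylase Kdm3a had 0.83 on its brighter probe and 1.41 on the other, and the transferrin receptor Tfrc 0.95, with 1.80 and 1.17 on its other probes. These 5 were picked after their values were seen. With detection in 1 pool sufficing, 15 of 33 were at least 2-fold higher, beside 22.6% of all 10592 genes counted that way.

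Glycolytic targets, left out of the members by rule, were set beside them. Of 19 listed, 14 were measured, with 4 at least 2-fold higher, 1 lower and a median of 0.64. The muscle-type pyruvate kinase Pkm was 7.27-fold higher (672 and 6483 units), the glucose carrier Slc2a1 5.01-fold (249 and 1657 units) and Pgk1 2.37-fold. Hk1 had 1.16 on its brighter probe and 0.24 on the other. Ldha, which makes lactate from pyruvate, lay within 2-fold at 0.59 ± 0.20, as did Pdk1, the kinase that keeps pyruvate out of mitochondria, at -0.37 ± 0.21. The 1 lower gene was Aldoc, a brain-type aldolase, at 417 and 130 units (log2 ratio -2.09 ± 0.21), beside the lower neural markers given above.

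**Figure D5:**
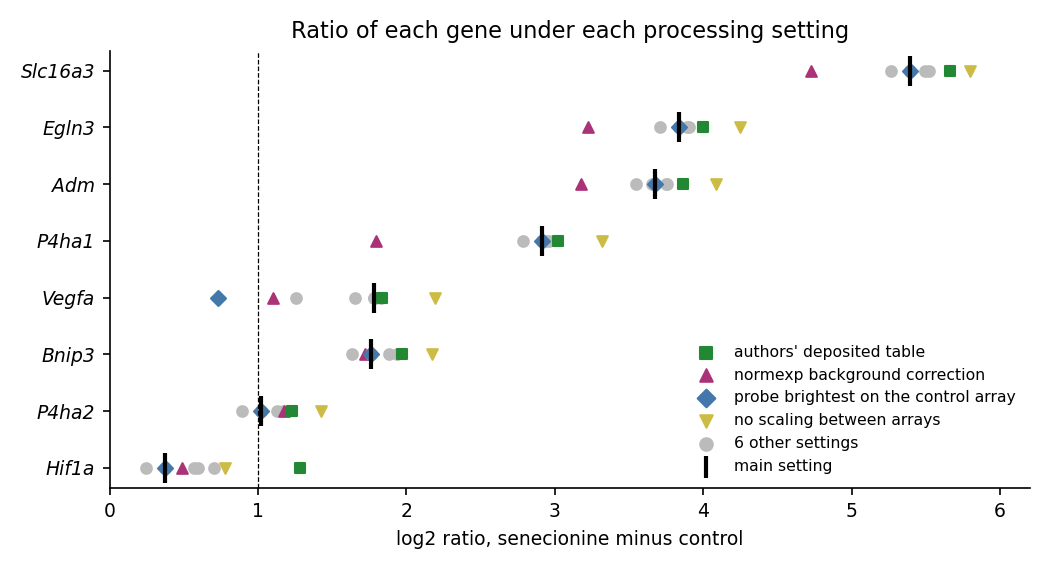
Log2 ratio of the 8 measured members under the main setting (black bars) and 10 other settings (symbols), with a dashed line at 2-fold. Slc16a3, Egln3, Adm, P4ha1 and Bnip3 lie past the line in every setting, while Vegfa spans 0.73 to 2.19, P4ha2 0.89 to 1.43 and Hif1a 0.25 to 1.28. The 1.28 of Hif1a is from its other probe in the authors' deposited table, which holds only probes at least 2-fold apart.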

How the data were processed

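Liver RNA of 2 pools was measured on 2 one-colour (Cy3) Agilent arrays. The authors' spot intensity values are the processed signal of Agilent Feature Extraction (version 10.7.3.1 in the submitters' processing notes). The authors' deposited log2 values cover 7404 probes, all at least 2-fold apart, with column medians of 6.03 and 6.10. How these were scaled is unstated. All 7355 of their probes compared here pointed the same way.

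For this report log2 of that signal was taken, less the 75th percentile of the same array without its control spots. Outlier spots were left out, 522 and 497, and spots of a probe were averaged. A probe was above background if at least 0.5 of its spots were. A gene was represented by the probe, well above background on both arrays, with the highest mean level. Where it was so on the senecionine array only, the bound takes as control value its own signal or the lowest detected one there, whichever is higher. Symbols come from the RefSeq table of assembly GRCr8, matched for 17250 probes of 40516. Coordinates are printed for the RefSeq promoter windows alone, in GRCr8, which is not the array design's build. Groups come from the sample titles. The counting was tested on simulated data. Alternatives included scaling by the median, by quantiles, by cyclic loess or not at all, normexp correction with offset 50 on median spot signals, other filters and probe rules, thresholds of 1.5-fold and 4-fold, and the authors' values. The members and lists were chosen with earlier results of these data known. Named were all members, up to 4 genes per list with the largest ratios, 11 regulators, partners and receptors in any case, and genes stated as picked later. Further genes named for context, such as collagens, S100 genes and genes near background, were chosen after their values were seen. Scripts ran in Python 3.11.15 (pandas 2.3.3, numpy 2.4.6) and R 4.3.3 with limma 3.58.1.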

Additional observations from a re-analysis of the deposited data

How the results depend on the processing

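No member reversed its direction under any of the settings tried. At least 2-fold higher were 7 of 8 members under most of them, 6 with median scaling (P4ha2 at 0.89) or with the probe brightest on the control array (Vegfa at 0.73), 8 of 9 when detection on 1 array sufficed, 9 of 9 in the authors' deposited table, which holds only probes past 2-fold, and 4 at a 4-fold threshold. None was lower. The lowest ratios of Slc16a3, Egln3, Adm and P4ha1 came with normexp correction, at 4.73, 3.22, 3.17 and 1.80. The other HIF targets counted as higher were 15 with detection on 1 array, 11 at 1.5-fold (with 2 lower), 11 without scaling, and 12 in the authors' deposited table (with 1 lower). Over all genes, 2389 were higher with detection on 1 array, 761 lower with normexp correction, 2032 higher in the authors' deposited table, 1642 higher and 2424 lower at 1.5-fold, 213 higher and 361 lower at 4-fold, and 1620 higher and 787 lower without scaling, which moved the median of all genes from -0.14 to 0.27. The settings without scaling and with the probe brightest on the control array were chosen after seeing the data. Of 80 member ratios recomputed, 59 moved by less than the spot error. Much of that count was fixed by design and is not a measure of robustness. Several filters and probe rules cannot change a member with a single probe or spot. Scaling by the median shifts every ratio by the same amount, below the spot errors, and no scaling shifts every ratio by the same amount, above them. With ACGTG alone, 3 member promoters in place of 5 had a match. Leaving out a replicate was not possible with 1 array per group. No paired analysis was possible because each group has 1 array. The number of arrays limits the precision, and low signals on the control array limit the ratios of Slc16a3, Egln3, Adm, P4ha1, Vegfa and Ndrg1.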

Other observations

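Platelet and red cell markers were at least 2-fold higher in 3 of 5 measured cases, led by Pf4 (10.3-fold), and their summed level was 10.8 and 39.0 multiples of the 75th percentile. Ppbp was detected in neither pool.

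Bile duct markers were at least 2-fold higher in 3 of 4 measured cases, led by Krt8 (8.73-fold), and Spp1, detected after senecionine alone, was at least 106-fold higher. Their summed level was 3.19 in the control and 43.4 after senecionine, while Cftr was detected in neither.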
